A study of Mus musculus with 18 samples.

Results

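Messenger RNA of mouse CD4+ T cells was compared between a high and a low dose of peptide antigen, 10 µM and 0.1 µM pPCC, given for 4 days. The cells carried the transgenic T cell receptor 5CC7 and came from spleen and lymph node. At both doses, naive cells had been activated with P13.9 cells, a fibroblast line that served as antigen-presenting cells and was loaded with the peptide. Each dose has 3 libraries, named A, B and C, so the comparison uses 6 of the 18 libraries of the series. The others are naive CD4+ T cells, P13.9 cells alone, and the same T cells at 0.01 µM and 1.0 µM, with 3 libraries each. These 2 doses were chosen because their libraries carry sample numbers from 1 run of numbers, while 1.0 µM and 0.01 µM carry numbers from another run. What the numbers stand for is not given. Every T cell library had contact with P13.9 cells except the naive ones. All activated cells share 1 receptor and 1 presenting line. The labels do not say whether libraries A to C came from separate animals or cultures, and the p-values therefore refer to the spread among these libraries alone, which may be technical.

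The table holds 15698 named features out of 15808, and all named features were considered. A gene was tested where its value reached 5 in at least 3 of the 12 activated libraries, which kept 5897 genes. A value is the number of reads divided by a size factor of the library, so it allows comparison of 1 gene between libraries but not of different genes per molecule. Changes are log2(10 µM) minus log2(0.1 µM) with 1 added to each value, given ± the standard error of a limma fit with n = 3 per dose. Every change, rise or fall below is on this log2 scale, on which low genes appear to change less than they do. A gene was called where the Benjamini-Hochberg adjusted p over all 5897 genes was below 0.05, and "rose" and "fell" below are used for called genes only.

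A T cell receptor that binds its peptide on an MHC molecule starts kinase signalling, and the strength of that signal bears on which helper fate a CD4+ cell takes. T-bet, the product of Tbx21, directs T helper 1 cells, which make interferon-gamma and migrate through the receptor CXCR3. GATA3 directs T helper 2 cells, which make interleukin-4, interleukin-5 and interleukin-13. Interferons act through JAK-STAT signalling, which switches on guanylate-binding proteins, immunity-related GTPases and the feedback inhibitor SOCS1.

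The libraries held T cell transcripts at both doses. The summed value of 12 CD4+ T cell markers ran from 1092 to 1325 at 0.1 µM and from 989 to 1177 at 10 µM, against 11.5 to 25.4 in P13.9 cells, and none of the 12 was called between the doses (0 at an unadjusted p below 0.05, and 0 by edgeR or DESeq2). Reads in named genes numbered 156941 to 443111 at 0.1 µM and 372851 to 659715 at 10 µM. The shallowest was 0.1 µM B, where 1 read is worth a value of 0.872. Libraries of 1 dose correlated over genes with r from 0.893 to 0.940 at 0.1 µM and from 0.949 to 0.962 at 10 µM. Fibroblast markers, summed over 19 genes, stood at 248 to 329 at 0.1 µM and at 167 to 174 at 10 µM. Most of that sum is Igfbp4, whose mean is 1.48 in P13.9 cells and 46.6 in naive cells. Without it the other 18 summed to 85.4 to 127 and to 37.6 to 46.6, against 84.5 to 113 in naive cells and 860 to 1004 in P13.9 cells, and the 2 doses did not overlap. Chemokines of stromal cells summed to 76.8 to 106.0 and to 25.9 to 32.2. Of the markers of other cells, myeloid genes summed to 41.8 to 50.1 and 36.0 to 41.9, MHC class II presentation genes to 14.6 to 20.05 and 12.4 to 15.4, and CD8 T and natural killer cell genes to 4.36 to 8.28 and 4.80 to 7.34, in that order of dose.

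Between 10 and 0.1 µM, 133 of 5897 genes were called, which is 2.26%. Of these, 26 rose (0.441%) and 107 fell (1.81%), and 918 genes had an unadjusted p below 0.05. The median log2 change over all genes tested was -0.03. Changes of the genes that rose lay between 0.48 and 2.67 with a median of 1.13, and the falls lay between 0.54 and 4.07 with a median of -1.20. The count was 84 without 0.1 µM B, 62 without 0.1 µM C, 41 without 10 µM A, 58 without 10 µM B and 62 without 10 µM C. With values scaled to total reads in place of the deposited size factors, 33.3% of the calls were rises, against 19.5% here.

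**Figure D1:**
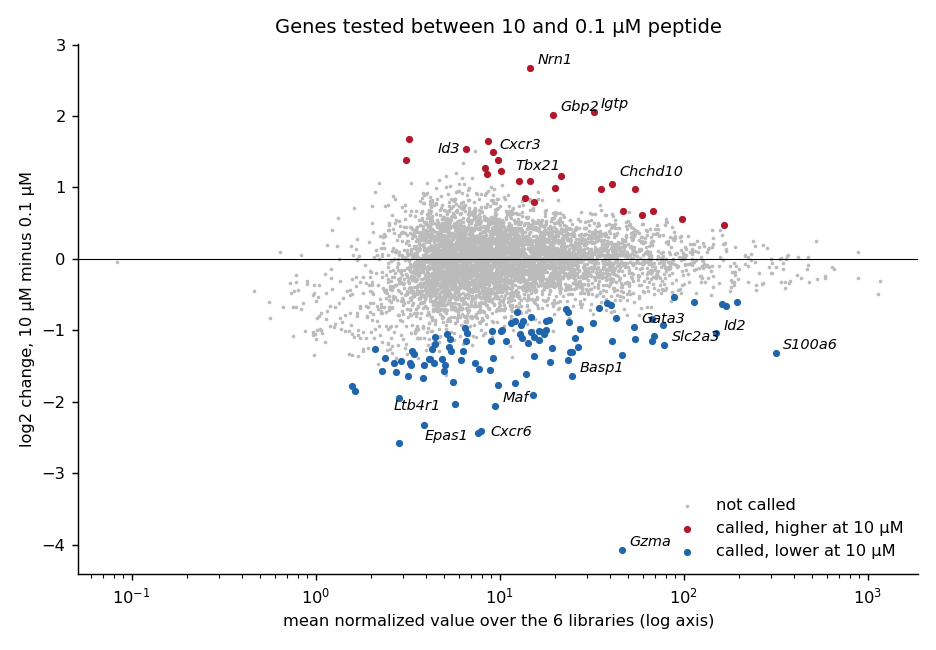
Log2 change from 0.1 to 10 µM (vertical axis) against the mean normalized value over the 6 libraries (horizontal log axis) for the 5897 genes tested. Red points are the 26 genes that rose, blue points the 107 that fell, and Gzma lies lowest at -4.07.

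The regulators of T helper 1 and T helper 2 fates moved in opposite directions. Tbx21 had values of 9.76, 5.23 and 8.698 at 0.1 µM and 17.2, 19.2 and 16.1 at 10 µM. Each 10 µM library was above each 0.1 µM library, and the difference amounted to a log2 change of 1.09 ± 0.26 (adjusted p = 0.03204). Its call was lost without 0.1 µM B or C or without any of the 10 µM libraries, with adjusted p from 0.0647 to 0.141, and it held in 10 of 21 alternatives, DESeq2 not among them. Cxcr3, the chemokine receptor that T-bet is known to induce, stood at 5.79, 2.61 and 4.97 at 0.1 µM and 14.1, 13.02 and 14.4 at 10 µM, again without overlap. It rose by 1.49 ± 0.33 (adjusted p = 0.0208). That call was lost without the same 5 libraries (adjusted p 0.0514 to 0.113). In bulk RNA, a larger share of cells with a transcript and more transcript per cell cannot be told apart.

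Gata3 stood at 61.6, 73.2 and 78.3 at 0.1 µM and 35.9, 40.8 and 32.2 at 10 µM. The highest 10 µM library lay below the lowest 0.1 µM library, and the gene showed a log2 change of -0.95 ± 0.17 (adjusted p = 0.004897). Its level in P13.9 cells was 2.21. The call held in 21 of 22 alternatives, the exception being a fit that added the naive libraries (adjusted p = 0.151). Maf, a transcription factor that drives interleukin-4 expression and lies on chromosome 8 at 115703253 to 115706894 of GRCm38 (mm10), fell further. Its values were 14.02, 14.8 and 18.6 at 0.1 µM and 3.39, 2.06 and 3.83 at 10 µM, with a log2 change of -2.06 ± 0.25 (adjusted p = 0.000133). Epas1, which encodes the hypoxia-inducible factor HIF-2alpha, went from 9.76, 16.6 and 14.5 at 0.1 µM to 0.847, 2.06 and 2.299 at 10 µM, a change of -2.43 ± 0.28 (adjusted p = 8.47e-05). Nfil3, a repressor linked to T helper 2 cytokine expression, was 35.7 at 0.1 µM and 15.9 at 10 µM and fell by 1.11 ± 0.17 (adjusted p = 0.00172). The 0.1 µM libraries were the high ones for each of these genes, and neither Maf nor Epas1 had more than 0.773 in P13.9 cells.

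Of 13 T helper 1 genes tested, 3 rose, 1 fell and 9 were not called, and the median change was 0.26. Tbx21 and Cxcr3 are among those that rose. The gene that fell is Cxcr6, a homing receptor of effector T cells on chromosome 9. It stood at 12.8, 12.2 and 16.98 at 0.1 µM and 1.98, 1.03 and 2.68 at 10 µM and changed by -2.40 ± 0.28 (adjusted p = 8.47e-05), so that the 2 chemokine receptors of this list went in opposite directions. Il12rb2, the interleukin-12 receptor chain that marks T helper 1 cells, stood at 6.47 at 0.1 µM and 7.29 at 10 µM (adjusted p = 0.807). Irf1, a transcription factor induced by interferon, stood at 43.5 at 0.1 µM and 59.7 at 10 µM (adjusted p = 0.124). Of 7 T helper 2 genes tested, 0 rose, 4 fell and 3 were not called, with a median of -0.95. Il13, the only T helper 2 cytokine that passed the filter, was 15.5, 19.2 and 8.698 at 0.1 µM and 12.99, 5.82 and 11.5 at 10 µM, and the groups overlapped (log2 change -0.48 ± 0.31, adjusted p = 0.489). Ifng and Il4 did not pass the filter. Ifng had 1 read in the 3 libraries at 0.1 µM and 4 reads at 10 µM, and Il4 had 0 and 4.

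**Figure D2:**
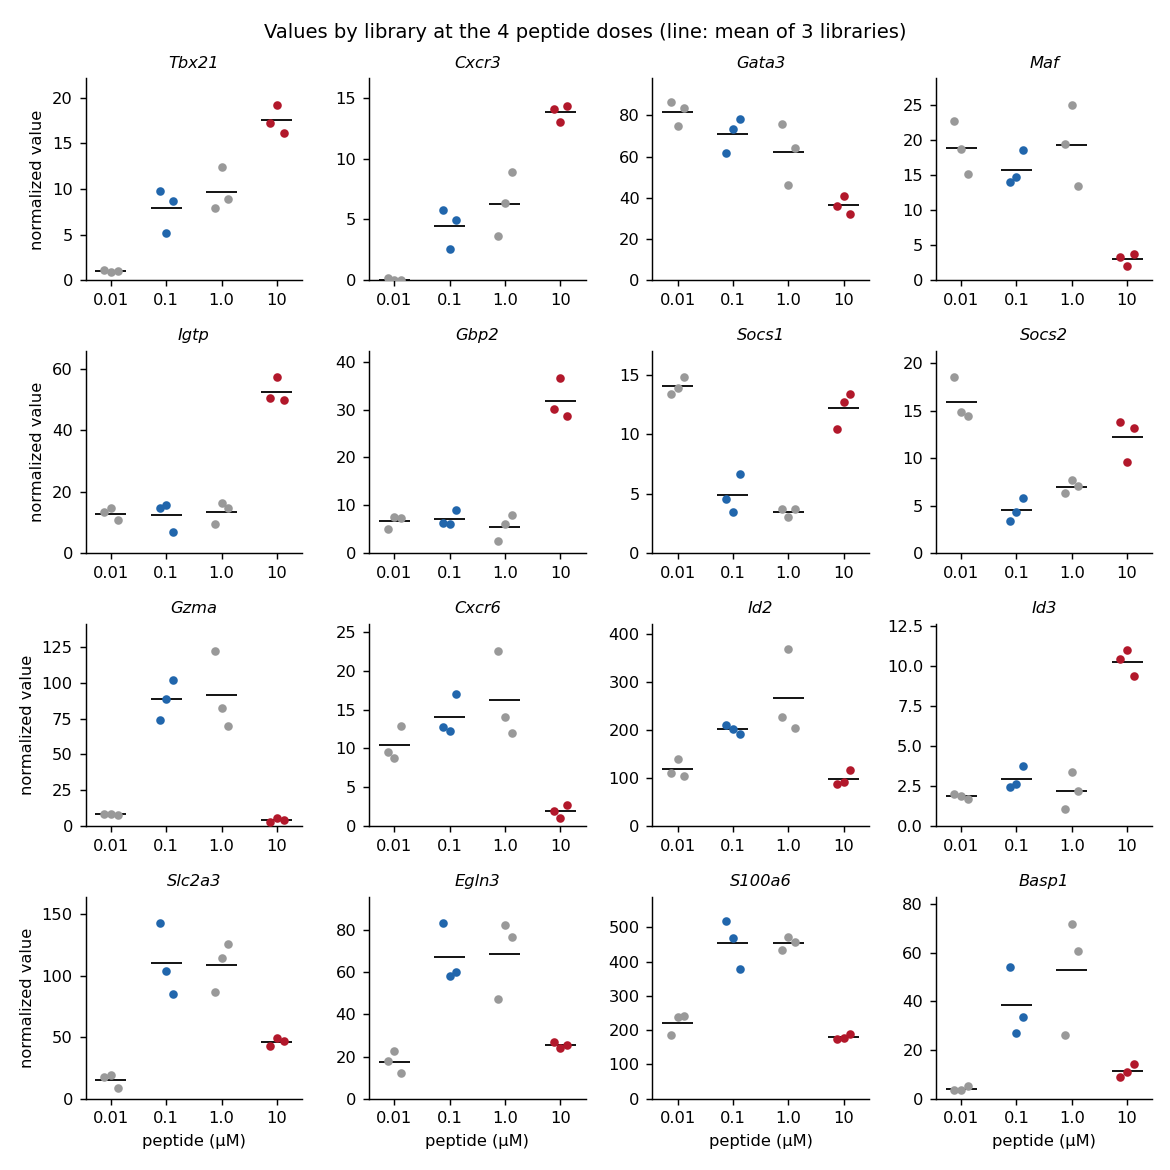
Normalized value (vertical axes from 0, different for each gene) of 16 genes in each library at 0.01, 0.1, 1.0 and 10 µM peptide (horizontal axes). Points are libraries, lines are means of 3 libraries, blue marks 0.1 µM and red 10 µM. All 16 genes were drawn from the called ones, and the 0.1 and 10 µM libraries do not overlap for any of them. Over all genes tested, 9.82% were higher at 10 µM without overlap and 13.1% were lower. Igtp, Gzma, Slc2a3, Egln3, S100a6 and Basp1 were also named by a rule that asked for no overlap.

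Interferon-stimulated genes included the largest rise among the more abundant genes, those whose mean over the 6 libraries reached 20. Igtp, an immunity-related GTPase that acts against intracellular parasites, stood at 14.6, 15.7 and 7.04 at 0.1 µM and 50.6, 57.2 and 49.8 at 10 µM. All 10 µM libraries were more than 3 times above any library at 0.1 µM, and the change was 2.06 ± 0.25 (adjusted p = 0.000133). Gbp2, a guanylate-binding protein, had 6.402, 6.101 and 9.11 at 0.1 µM and 30.2, 36.7 and 28.7 at 10 µM and a log2 change of 2.01 ± 0.29 (adjusted p = 0.000732). Socs1, the inhibitor that limits JAK-STAT signalling, was at 4.57, 3.49 and 6.63 at 0.1 µM and 10.5, 12.7 and 13.4 at 10 µM and rose by 1.19 ± 0.24 (adjusted p = 0.0119). P13.9 cells held a mean of 4.19 of Igtp, 2.18 of Gbp2 and 1.26 of Socs1. Igtp and Gbp2 kept their calls when any 1 library was left out. Socs1 lost its call without 10 µM B (adjusted p = 0.0642) or C (0.0719). Igtp and Gbp2 belong to families of similar genes, and how reads shared between family members were counted is not given.

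Of the 21 interferon-stimulated genes tested, 4 rose and 0 fell, 15 changed by more than 0, and the median was 0.57. Without 1 library at a time, 3 to 6 rose. Over all 5897 genes tested, 0.441% rose, 1.81% fell and 2736 changed by more than 0. Irf9, part of the complex that type I interferon activates, stood at 6.19 at 0.1 µM and 12.5 at 10 µM (adjusted p = 0.0577). Irgm2, another immunity-related GTPase, stood at 3.500 at 0.1 µM and 8.98 at 10 µM (adjusted p = 0.107). Isg15, a ubiquitin-like protein induced by type I interferon, was 4.36 at 0.1 µM and 4.63 at 10 µM (adjusted p = 0.9404), Ifi27 was 22.9 at 0.1 µM and 22.8 at 10 µM (adjusted p = 0.979) and Ly6a 221 at 0.1 µM and 212 at 10 µM (adjusted p = 0.853). The changes within the list thus ran from -0.33 for Ly6e to 2.06 for Igtp.

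Igtp, Gbp2 and Socs1 have a promoter window in RefSeq (GRCm38.p6), from 250 bases before to 50 bases after the transcription start. Each window was searched on both strands for the letters TTCNNNGAA, the core of the GAS element of interferon-gamma targets, and for the core of the ISRE, which is GAAA, any 2 bases and GAAA. Over 27025 promoters, 8.47% hold the first and 3.49% the second. Among genes tested here the shares are 6.65% and 3.23% of 4495 promoters. Among the genes that rose, counting 1 window per gene, 1 of 21 holds the first and 3 of 21 the second. Coro2a, a coronin that also rose, has a match to the second in another of its windows. The 120 bases before the start are shown for these 3 genes because they are the interferon-stimulated genes that rose and have a window, with the matching letters in capitals. Igtp is at chr11:58199436-58199555 on the plus strand, Gbp2 at chr3:142620543-142620662 on the plus strand and Socs1 at chr16:10785537-10785656 on the minus strand.
Igtp: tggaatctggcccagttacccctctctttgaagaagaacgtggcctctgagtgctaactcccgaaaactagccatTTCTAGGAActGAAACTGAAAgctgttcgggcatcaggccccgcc
Gbp2: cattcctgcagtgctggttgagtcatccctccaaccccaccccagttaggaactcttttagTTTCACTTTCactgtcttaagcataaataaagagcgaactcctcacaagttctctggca
Socs1: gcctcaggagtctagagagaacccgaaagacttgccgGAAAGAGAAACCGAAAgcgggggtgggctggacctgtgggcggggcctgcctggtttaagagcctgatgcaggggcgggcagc
In Igtp the GAS letters run from base -45 to -37 of the start and the ISRE letters from -34 to -25. In Gbp2 the ISRE letters lie at -59 to -50 and read on the opposite strand. In Socs1, 2 ISRE matches overlap, at -83 to -74 and -77 to -68. These are matches of letters and no measurement of binding.

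Among genes of class I antigen presentation, 1 of 20 rose, 0 fell and the median was -0.05. The gene that rose is Psmb10, a catalytic subunit of the immunoproteasome, with 46.3, 53.2 and 41.4 at 0.1 µM and 74.00, 72.6 and 70.1 at 10 µM and a log2 change of 0.62 ± 0.15 (adjusted p = 0.0386). Its call was lost in 5 of 6 fits without 1 library, all but the one without 0.1 µM B (adjusted p up to 0.176). Psmb8 and Psmb9, the other inducible subunits, stood at 122 at 0.1 µM and 163 at 10 µM and at 66.9 at 0.1 µM and 96.01 at 10 µM (adjusted p = 0.255 and 0.309). The class I heavy chains H2-K1 and H2-D1 had changes of -0.27 and -0.35 (adjusted p = 0.2497 and 0.169).

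The largest change of all genes tested was in Gzma, which encodes the cytotoxic granule protease granzyme A and lies on chromosome 13 at 113093824 to 113100981. Its values were 74.1, 88.9 and 102 at 0.1 µM and 3.11, 5.82 and 4.21 at 10 µM, with a log2 change of -4.07 ± 0.22 (adjusted p = 1.7e-09). Each 0.1 µM library held more than 10 times the value of any 10 µM library. The naive mean was 26.5 and the P13.9 mean 1.25. Gzmb, granzyme B, was 27.4, 26.1 and 24.9 at 0.1 µM and 15.8, 9.59 and 12.8 at 10 µM. The groups did not overlap, but with a log2 change of -1.01 ± 0.27 (adjusted p = 0.0651) the gene was not called. Of 8 genes of effector function and granules tested, 3 fell, 0 rose and the median was -0.69. The other 2 that fell are the transcriptional regulators Prdm1 and Id2. Prdm1 encodes BLIMP-1, a transcriptional repressor of effector lymphocytes, and was 6.71, 6.101 and 6.21 at 0.1 µM and 1.69, 0.685 and 1.72 at 10 µM, a change of -1.67 ± 0.32 (adjusted p = 0.008402). Its call was lost without 10 µM B (adjusted p = 0.0574). Srgn, the proteoglycan that packs granules, stood at 57.3 at 0.1 µM and 43.8 at 10 µM (adjusted p = 0.404) and Lamp1, a lysosomal membrane protein, at 30.6 at 0.1 µM and 30.2 at 10 µM (adjusted p = 0.959).

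The inhibitors of E proteins Id2 and Id3 moved oppositely. Id2, which favours effector cells, stood at 211, 203 and 192 at 0.1 µM and 86.99, 91.5 and 117 at 10 µM and fell by 1.04 ± 0.18 (adjusted p = 0.00438). Id3, which is high in naive and follicular or memory-like cells, stood at 2.44, 2.61 and 3.73 at 0.1 µM and 10.5, 10.96 and 9.39 at 10 µM and rose by 1.53 ± 0.32 (adjusted p = 0.0143). For both genes the 2 doses did not overlap. Id3 passed the filter on low values in 3 of the 6 fits that left 1 library out, and was called in those 3. It passed only through the 10 µM libraries, where it is high. Among 17 transcription factors and survival genes of naive and memory cells, Id3 was the only one called and the median was -0.20. Tcf7, which maintains naive and memory cells, was 20.1, 19.2 and 13.3 at 0.1 µM and 29.4, 25.3 and 26.1 at 10 µM (adjusted p = 0.2402). Klf2, which controls exit from lymph nodes, was 12.1 at 0.1 µM and 10.2 at 10 µM (adjusted p = 0.827), and Ccr7, a lymph node homing receptor, 17.1 at 0.1 µM and 25.3 at 10 µM (adjusted p = 0.247). Of 15 chemokine receptors and homing molecules, only Cxcr3 rose and only Cxcr6 fell.

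Genes known from T helper 17 cells were lower or not called, and those of follicular helper cells went in both directions. Of 6 T helper 17 genes tested, 3 fell, 0 rose and the median was -0.97. Batf, an AP-1 factor needed by both lineages, stood at 25.3, 28.8 and 27.7 at 0.1 µM and 13.3, 8.22 and 11.9 at 10 µM and fell by 1.24 ± 0.19 (adjusted p = 0.00123). Rora, a nuclear receptor, was 5.49, 10.5 and 7.87 at 0.1 µM and 1.41, 1.71 and 2.87 at 10 µM and fell by 1.57 ± 0.33 (adjusted p = 0.0166), a call lost without 0.1 µM B (adjusted p = 0.0737), 0.1 µM C (0.0638), 10 µM A (0.101) or 10 µM B (0.0772). Tmem176a, a membrane protein, fell by 1.48 ± 0.30 (adjusted p = 0.0125), and its level in P13.9 cells was 52.6 against 7.87 at 0.1 µM and 2.201 at 10 µM. It lost its call without 0.1 µM C, 10 µM B or 10 µM C (adjusted p 0.0572 to 0.0649). After subtraction of P13.9 transcripts its change was -0.93 (adjusted p = 0.595) by the fibroblast list and -1.41 (0.336) by the genes without naive reads, and 1 of the 6 genes of the list was called either way. Of 4 follicular helper genes tested, 1 fell, 0 rose, 3 changed by more than 0 and the median was 0.81. The 1 that fell is Icos, a costimulatory receptor, from 13.4, 14.8 and 17.4 at 0.1 µM to 8.47, 7.19 and 7.47 at 10 µM. Its change was -0.89 ± 0.19 (adjusted p = 0.0179), a call which was lost without 0.1 µM C or any 10 µM library (adjusted p 0.0540 to 0.0832). DESeq2 did not call it either. Cd200 was 3.87 at 0.1 µM and 10.8 at 10 µM (adjusted p = 0.0719) and Slamf6, an adhesion receptor of T cells, 5.93 at 0.1 µM and 11.9 at 10 µM (adjusted p = 0.0833), both not called. Bcl6, the regulator of follicular helper cells, did not pass the filter, with 7 reads at 0.1 µM and 16 at 10 µM.

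Among 27 cytokine receptors and feedback genes, 3 rose, 1 fell and the median was -0.18. Socs1 and Socs2 are among those that rose. Socs2, a feedback inhibitor of JAK-STAT signalling, stood at 3.35, 4.36 and 5.798 at 0.1 µM and 13.8, 9.59 and 13.2 at 10 µM, a change of 1.27 ± 0.23 (adjusted p = 0.00552), with its call lost without 10 µM A (adjusted p = 0.0510). Il10ra, the interleukin-10 receptor chain, was 4.88, 7.84 and 5.798 at 0.1 µM and 1.69, 1.03 and 1.92 at 10 µM and fell by 1.49 ± 0.33 (adjusted p = 0.0216). Without 0.1 µM A its call held, and without any other library it was lost (adjusted p 0.0508 to 0.106). The interleukin-2 receptor genes were not called, although the alpha chain was lower at 10 µM without overlap. Il2ra stood at 74.1, 77.6 and 77.5 at 0.1 µM and 65.5, 69.2 and 57.7 at 10 µM (adjusted p = 0.332) and Il2rb at 205, 121 and 134 at 0.1 µM and 159, 184 and 174 at 10 µM (adjusted p = 0.688). Socs3 was 6.09 at 0.1 µM and 1.48 at 10 µM and missed the call (adjusted p = 0.0587).

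Most genes of the T cell receptor machinery were not called. Of 27 genes of the receptor and its proximal signalling, 0 rose, 2 fell and the median was -0.20. Over all genes tested, 0.441% rose and 1.81% fell. Of the 27, 1 was higher at 10 µM without overlap and 7 were lower, against 9.82% and 13.1% of all genes. Trat1, an adaptor that holds the receptor complex at the surface, was 14.6, 10.5 and 13.3 at 0.1 µM and 4.52, 6.17 and 4.98 at 10 µM and fell by 1.14 ± 0.23 (adjusted p = 0.0129). Sla, an adaptor that lowers receptor levels, was 26.8, 30.5 and 28.99 at 0.1 µM and 14.97, 17.8 and 19.2 at 10 µM and fell by 0.71 ± 0.16 (adjusted p = 0.0274). Both calls were lost in fits without single libraries, Trat1 without 0.1 µM A or C or 10 µM A or C (adjusted p 0.0511 to 0.0823) and Sla in all but the fit without 0.1 µM A (0.0566 to 0.175). The call of Sla held in 10 of 22 alternatives, edgeR and DESeq2 not among them. Lck, the kinase that starts signalling, was 95.4, 89.8 and 80.3 at 0.1 µM and 102, 111 and 103 at 10 µM (adjusted p = 0.456), Cd4 was 18.3 at 0.1 µM and 21.7 at 10 µM (adjusted p = 0.743), and Cd3e, a chain of the receptor complex, 17.8 at 0.1 µM and 13.4 at 10 µM (adjusted p = 0.347). Of 23 activation and immediate early genes, Ier3 alone was called. It fell from 142, 77.6 and 88.6 at 0.1 µM to 48.02, 47.96 and 60.5 at 10 µM, a change of -0.92 ± 0.20 (adjusted p = 0.0205), and lost its call without 0.1 µM A, 10 µM A or 10 µM B (adjusted p 0.0792 to 0.112). Irf4, whose expression follows receptor signal strength, stood at 13.7, 6.97 and 9.53 at 0.1 µM and 16.7, 11.99 and 11.3 at 10 µM with overlap between the doses (adjusted p = 0.445). Cd44, an adhesion receptor of activated cells, stood at 38.4, 38.3 and 55.1 at 0.1 µM and 31.4, 30.8 and 32.6 at 10 µM without overlap, and was not called (adjusted p = 0.193). Nr4a1, an early target of receptor signalling, did not pass the filter, with 10 reads at 0.1 µM and 24 at 10 µM.

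A glucose transporter and a hypoxia-induced hydroxylase fell, and no enzyme of glycolysis was called. Slc2a3, the glucose transporter GLUT3, was 143, 104 and 85.3 at 0.1 µM and 42.6, 49.7 and 46.9 at 10 µM, a change of -1.20 ± 0.24 (adjusted p = 0.0119). Egln3, a prolyl hydroxylase that is itself induced by low oxygen, stood at 83.5, 58.4 and 60.1 at 0.1 µM and 27.1, 24.3 and 25.5 at 10 µM and fell by 1.34 ± 0.22 (adjusted p = 0.00274). The 0.1 µM A library was the highest for both genes, and Slc2a3 lost its call without it (adjusted p = 0.0578) or without 10 µM A (0.0749). These 2 are the called members among 23 genes of glycolysis and glucose uptake, whose median was -0.12. Ldha, lactate dehydrogenase, was 336 at 0.1 µM and 337 at 10 µM (adjusted p = 0.991), Aldoa, an aldolase, 186 at 0.1 µM and 173 at 10 µM (adjusted p = 0.826), and Slc2a1, the transporter GLUT1, 58.96 at 0.1 µM and 47.1 at 10 µM (adjusted p = 0.382).

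Lists of growth and division held 0 called genes by limma, and 0 by edgeR or DESeq2. These were 52 genes of oxidative phosphorylation (median 0.0048), 42 of DNA replication (0.22), 36 of mitosis (0.03), 31 of nucleolar ribosome assembly and Myc (0.31), 65 cytosolic ribosomal proteins (-0.19), 37 mitochondrial ribosomal proteins (0.21), 18 of cholesterol synthesis (0.08), 19 of amino acid and one-carbon metabolism (0.21) and 12 of the BCL2 family and cell death (-0.14). At an unadjusted p below 0.05, 8 replication genes, 7 nucleolar genes and 6 mitochondrial ribosomal protein genes were higher and 0 of these lists lower. Of the 65 cytosolic ribosomal protein genes, 1 was higher and 7 were lower. Over all 5897 genes tested, 342 were higher and 576 lower at that threshold. Changes were above 0 for 30 of the 31 nucleolar genes, 39 of the 42 replication genes and 33 of the 37 mitochondrial ribosomal protein genes, against 2736 of all 5897 genes tested. Examples are Srm, spermidine synthase, at 24.7, 30.5 and 33.96 at 0.1 µM and 47.5, 45.9 and 43.7 at 10 µM (adjusted p = 0.06798), Nhp2, a protein of small nucleolar particles, at 26.5, 25.3 and 25.7 at 0.1 µM and 51.97, 41.4 and 40.6 at 10 µM (adjusted p = 0.08703), and Cdt1, a replication licensing factor, at 39.6, 47.9 and 35.2 at 0.1 µM and 60.7, 56.5 and 52.1 at 10 µM (adjusted p = 0.149). In these 3 genes the doses did not overlap, and Nhp2 was also named by a rule that asked for this. Over all genes, 9.82% were higher at 10 µM without overlap and 13.1% were lower, and among the nucleolar genes 12 of 31 were higher without overlap and 0 lower. Mki67, the proliferation marker, was 8.54, 9.59 and 15.7 at 0.1 µM and 6.78, 4.45 and 6.32 at 10 µM (adjusted p = 0.166), and Ccnb1, a mitotic cyclin, 20.4, 17.4 and 18.2 at 0.1 µM and 23.4, 24.3 and 25.9 at 10 µM (adjusted p = 0.318).

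**Figure D3:**
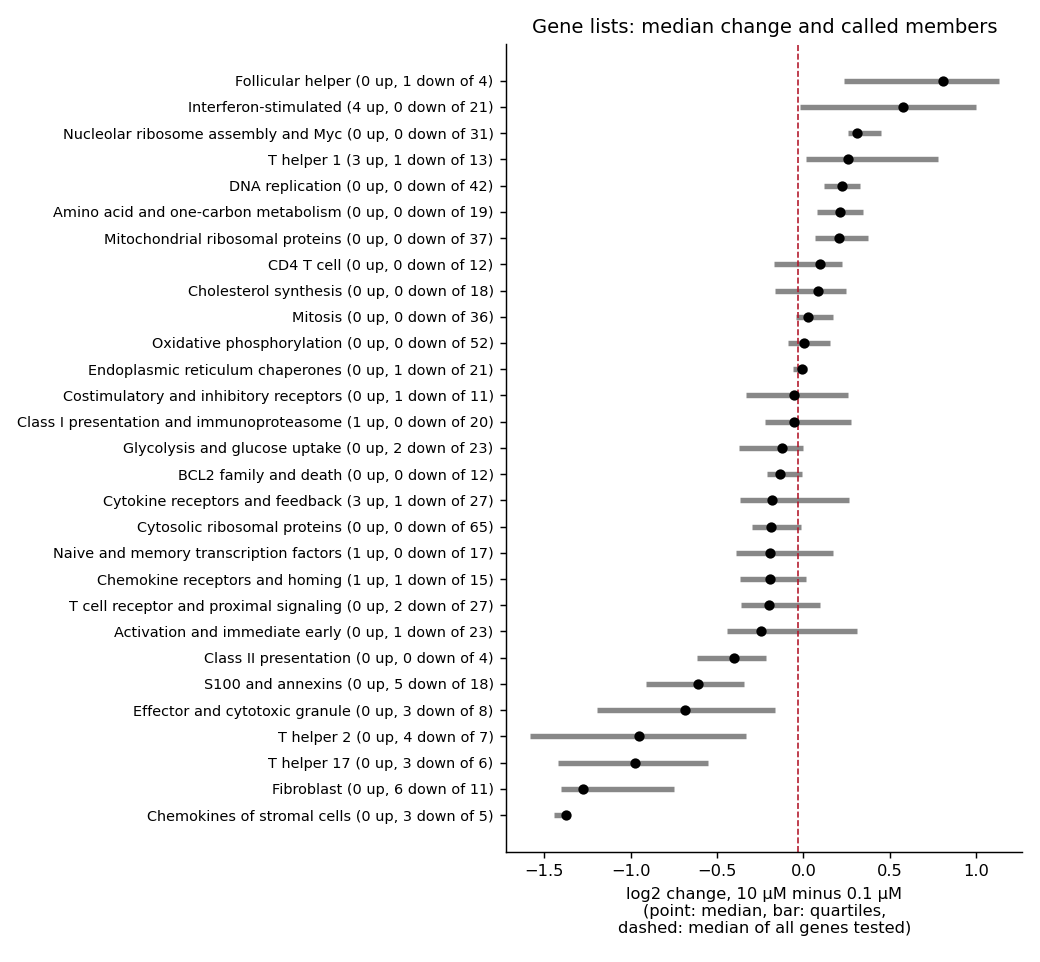
Median log2 change from 0.1 to 10 µM (horizontal axis) of each gene list with at least 4 genes tested, with quartiles as bars and the counts of called genes beside each name. The dashed line is the median of all genes tested, -0.03. Medians run from -1.38 for chemokines of stromal cells to 0.81 for the 4 follicular helper genes, 1 of which fell.

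S100 and annexin genes lay lower at 10 µM. Of 18 tested, 5 fell, 0 rose, 17 changed by less than 0 and the median was -0.61. After the 2 subtractions 0 and 1 of them were called, with medians of -0.39 and -0.40. Among all 5897 genes tested, 1.81% fell and 2736 changed by more than 0. S100a6, a calcium-binding protein of activated and migrating cells, had 518, 469.8 and 378 at 0.1 µM and 175, 178 and 189 at 10 µM, with a log2 change of -1.32 ± 0.13 (adjusted p = 2.75e-05). The P13.9 mean of S100a6 was 657, and after subtraction of P13.9 transcripts, described below, its change was -1.29 by the fibroblast list, without a call (adjusted p = 0.655), and -1.37 by the genes without naive reads, with one (0.0113). S100a4 went from 34.9 at 0.1 µM to 13.3 at 10 µM, a change of -1.30 ± 0.21 (adjusted p = 0.00248), and Lgals3, the lectin galectin-3, from 21.1 at 0.1 µM to 6.61 at 10 µM, a change of -1.61 ± 0.28 (adjusted p = 0.00345), with P13.9 means of 209 and 145. After the same 2 subtractions S100a4 was at -0.67 (adjusted p = 0.615) and -1.26 (0.0903), and Lgals3 at -1.02 (0.457) and -2.18 (0.270), so neither stayed called. Anxa2, a membrane-binding annexin, changed by -0.60 ± 0.13 (adjusted p = 0.02202) from 138 at 0.1 µM to 90.5 at 10 µM. S100a8, an abundant gene of neutrophils, changed by -1.15 ± 0.29 (adjusted p = 0.0479) from 9.56 at 0.1 µM to 3.505 at 10 µM, and its mean was 483 in naive cells and 0.3701 in P13.9 cells. Anxa2 lost its call without any 1 library (adjusted p 0.0559 to 0.102) and S100a8 without any but 0.1 µM A (0.0798 to 0.189). The call of S100a8 held in 6 of 21 alternatives, edgeR and DESeq2 not among them. Lgals1, the lectin galectin-1, stood at 361 at 0.1 µM and 359 at 10 µM (adjusted p = 0.993). Vim, vimentin, stood at 304 at 0.1 µM and 281 at 10 µM (adjusted p = 0.813).

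Several fibroblast marker genes were higher at 0.1 µM. Without Igfbp4 the markers summed to 85.4 to 127 at 0.1 µM and to 84.5 to 113 in naive cells, which had no contact with P13.9 cells. Which cells these transcripts came from was not tested. Of 11 fibroblast genes tested, 6 fell, 0 rose and the median was -1.28. Sparc, a matrix protein, was 6.71, 6.97 and 8.698 at 0.1 µM and 1.41, 3.08 and 2.299 at 10 µM and fell by 1.40 ± 0.25 (adjusted p = 0.00438). Col1a2, a collagen chain, was 2.74, 5.23 and 7.46 at 0.1 µM and 0.282, 0.685 and 0.575 at 10 µM and fell by 1.95 ± 0.35 (adjusted p = 0.004402). Fn1, fibronectin, was 7.93, 15.7 and 12.4 at 0.1 µM and 2.54, 4.11 and 3.45 at 10 µM and fell by 1.54 ± 0.30 (adjusted p = 0.00914). The doses did not overlap in any of these. Timp2, an inhibitor of matrix proteases, and Cav1, the coat protein of caveolae, also fell, with changes of -1.34 ± 0.32 (adjusted p = 0.0333) and -1.41 ± 0.36 (adjusted p = 0.04804). The P13.9 means of these 5 genes were 123, 51.4, 277, 130.1 and 78.7. Fn1 lost its call without 10 µM A (adjusted p = 0.0685), Timp2 without 0.1 µM B or C or 10 µM A or C (0.0782 to 0.201) and Cav1 without any but 0.1 µM A (0.0967 to 0.198). Timp2 held its call in 6 of 18 alternatives and Cav1 in 7 of 21, edgeR not among them. The sixth, Igfbp4, an insulin-like growth factor binding protein, had a P13.9 mean of 1.48 and a naive mean of 46.6. It stood at 163, 230.1 and 202 at 0.1 µM and 129, 127 and 123 at 10 µM, and its call was lost without any 1 library other than 0.1 µM A (adjusted p 0.0704 to 0.0886).

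Of 5 chemokines and growth factors of stromal cells, 3 fell, 0 rose and the median was -1.38. Cxcl1, a neutrophil attractant, was 24.4, 20.9 and 21.95 at 0.1 µM and 8.19, 8.22 and 8.05 at 10 µM and fell by 1.35 ± 0.17 (adjusted p = 0.000133). Cxcl2, a related attractant, was 22.6, 12.2 and 12.4 at 0.1 µM and 3.39, 3.43 and 4.41 at 10 µM and fell by 1.77 ± 0.25 (adjusted p = 0.000612). Ccl2, a monocyte attractant, was 19.5, 27.02 and 37.3 at 0.1 µM and 9.89, 11.6 and 6.896 at 10 µM and fell by 1.45 ± 0.33 (adjusted p = 0.0256), a call lost without any 1 library other than 0.1 µM A (adjusted p 0.0572 to 0.130). P13.9 cells alone held 52.9, 18.4 and 101. The 0.1 µM libraries were higher in every case without overlap.

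The P13.9 transcript share of a library was estimated from 8 fibroblast genes, dividing each value by the mean of that gene in P13.9 cells and taking the median. It was 5.38%, 9.54% and 12.8% at 0.1 µM, which gives 9.25 ± 3.74% (SD, n = 3), and 1.87%, 2.996% and 1.66% at 10 µM, which gives 2.18 ± 0.718%. The shares differed by -7.08 percentage points, with an exact two-sided permutation p of 0.1, the smallest that 3 against 3 libraries can give. Over 206 genes that had no read in naive cells and reached 10 in P13.9 cells, the shares were 9.32 ± 2.75% and 3.43 ± 0.415% (SD, n = 3). Naive libraries, which had no contact with P13.9 cells, gave 7.45 ± 1.55% by the fibroblast genes (SD, n = 3) and 0 by construction over the 206 genes. They held only 27789 to 97757 reads in named genes, with 1 read worth a value of 2.17 to 6.55. A gene without naive reads may thus still be present there at a low level. These shares moved with dose beside the results above, and apart from the subtraction that follows their part in those results was not tested.

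When the share was subtracted from each library, 29 genes were called by the fibroblast list and 45 by the 206 genes, of which 28 and 43 are among the 133. Called under both were 3 that rose, Igtp, Gbp2 and Socs2, and 24 that fell, among them Gzma, Epas1, Cxcr6, Maf, Prdm1, Batf, Bcl3, Nfil3, Id2 and Gata3. For Gata3 the change was -1.03 (adjusted p = 0.0494) and -1.02 (0.0311) after the 2 subtractions. For Tbx21 it was 1.01 both times, without a call (adjusted p = 0.143 and 0.0983). Socs1 and Cxcr3 kept changes of 1.12 or more and were not called either. The P13.9 means of Tbx21, Socs1 and Cxcr3 were 0.223, 1.26 and 0, so little or nothing was subtracted from them. With nothing subtracted, the change of Cxcr3 went from 1.49 to 1.40 and 1.41 through the new size factors. Why their calls were lost was not tested. Egln3 and Basp1 were called by the 206 genes (adjusted p = 0.0336 and 0.0479) but not by the fibroblast list (0.0664 and 0.0629), and Slc2a3 by the fibroblast list (0.0486) but not by the 206 genes (0.0606). By list, the calls after the subtractions were 0 rises and 1 fall both times for T helper 1 genes, 4 falls both times for T helper 2 genes, 2 rises both times for interferon-stimulated genes, 3 falls both times for effector genes and 2 falls both times for stromal chemokines. All 26 genes that rose and 94 of the 107 that fell kept their sign under both subtractions. Of the other 13, 7 lay above 0 by the fibroblast list and 6, Fn1 and Timp2 among them, were at 0 under both. Sparc, Gpnmb and Gm11942 are among the 7, with 0.06, 0.03 and 1.25. Sparc, Fn1 and Timp2 belong to the 8 genes that set the subtracted share, so their loss follows from the construction. Gpnmb encodes a membrane glycoprotein and had a P13.9 mean of 800.4. Gm11942 is a predicted gene with a P13.9 mean of 597.

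**Figure D4:**
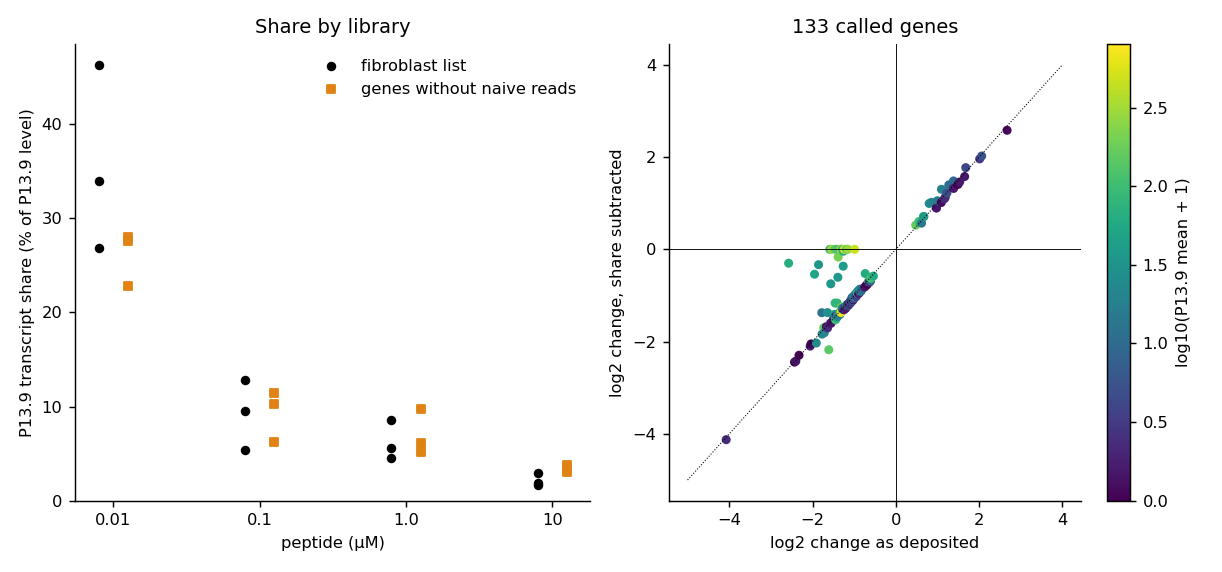
Left, P13.9 transcript share of each library in percent of the P13.9 level (vertical axis) by peptide dose (horizontal axis), by the fibroblast list (black circles) and by 206 genes without naive reads (orange squares). Right, log2 change of the 133 called genes as deposited (horizontal axis) and after subtraction by the 206 genes (vertical axis), coloured by their P13.9 level. The dotted line marks equal change. The median of the 107 falls is -1.20 as deposited and -1.11 after this subtraction.

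Large changes were also found in other abundant genes. Basp1, a membrane-bound signalling protein, was 54.3, 27.02 and 33.5 at 0.1 µM and 8.76, 10.96 and 14.2 at 10 µM and fell by 1.64 ± 0.31 (adjusted p = 0.00772), with its call lost without 10 µM A (adjusted p = 0.0605). Bcl3, an atypical inhibitor of NF-kappa-B, was 44.8, 67.98 and 56.7 at 0.1 µM and 23.4, 26.03 and 24.5 at 10 µM and fell by 1.15 ± 0.20 (adjusted p = 0.00345). Eeig1, an estrogen-induced gene, was 78.96, 97.6 and 102 at 0.1 µM and 37.3, 44.9 and 41.9 at 10 µM and fell by 1.14 ± 0.14 (adjusted p = 0.000133). These 3 genes were named by a rule that asked for no overlap between the doses. Dap, a death-associated protein, was 34.8 at 0.1 µM and 12.5 at 10 µM and fell by 1.41 ± 0.20 (adjusted p = 0.000732). Smco4, a small membrane protein, was 74.4 at 0.1 µM and 33.8 at 10 µM and fell by 1.12 ± 0.18 (adjusted p = 0.00222).

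Among the rises, Chchd10, a protein between the mitochondrial membranes, was 28.96, 31.4 and 19.1 at 0.1 µM and 58.5, 48.6 and 57.8 at 10 µM and rose by 1.05 ± 0.19 (adjusted p = 0.00552). Ms4a4b, a membrane protein of T cells, was 24.7, 26.1 and 20.7 at 0.1 µM and 48.3, 48.6 and 45.97 at 10 µM and rose by 0.97 ± 0.22 (adjusted p = 0.0219). Snora73b, a small nucleolar RNA, and Snhg3, its host transcript on chromosome 4, rose by 0.97 ± 0.22 (adjusted p = 0.0228) and 0.66 ± 0.15 (adjusted p = 0.02202). Snora73b lies at 132352322 to 132352526 within Snhg3 at 132351933 to 132353686, so their reads may be shared. Smaller rises were found in Pa2g4, a growth regulator of the nucleolus (0.67 ± 0.17, adjusted p = 0.0443), C1qbp, a mitochondrial matrix protein (0.55 ± 0.13, adjusted p = 0.03204), and Cct7, a chaperonin subunit (0.48 ± 0.11, adjusted p = 0.0274). Pa2g4, C1qbp and Cct7 lost their calls without any 1 library (adjusted p 0.0507 to 0.201), Chchd10 without 10 µM A (0.0507), and Ms4a4b, Snhg3 and Snora73b without 4, 4 and 5 of the 6 libraries (up to 0.124).

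Some strong changes of genes with lower means were picked out after their values were seen. Nrn1, which encodes the surface protein neuritin, had the largest rise of all, 7.62, 0.872 and 3.31 at 0.1 µM and 24.6, 22.9 and 28.3 at 10 µM, with a log2 change of 2.67 ± 0.52 (adjusted p = 0.00848). Its 0.1 µM B value of 0.872 is 1 read, and its call was lost without 10 µM A (adjusted p = 0.0507) or 10 µM C (0.0505). Cd9, a tetraspanin, was 0.6097, 0.872 and 1.66 at 0.1 µM and 5.37, 5.48 and 5.36 at 10 µM and rose by 1.68 ± 0.36 (adjusted p = 0.0191), a call lost without 0.1 µM A (0.0578). Like Id3, it passed the filter only through the 10 µM libraries. Ltb4r1, the leukotriene B4 receptor, was 8.54, 10.5 and 10.4 at 0.1 µM and 2.54, 1.37 and 1.15 at 10 µM and fell by 2.03 ± 0.30 (adjusted p = 0.00113). Rgs1, a regulator of G protein signalling, was 11.3, 16.6 and 12.8 at 0.1 µM and 2.82, 3.43 and 5.94 at 10 µM and fell by 1.56 ± 0.25 (adjusted p = 0.00248). Neither Ltb4r1 nor Rgs1 had a P13.9 mean above 0.479.

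The other pair of doses inside 1 run of sample numbers, 1.0 against 0.01 µM, is also a 100-fold step and shares no library with this one. There, 1353 of 5897 genes were called (22.9%), 655 rising (11.1%) and 698 falling (11.8%). The difference of the 2 steps was called for 601 genes (10.2%), 190 positive (3.22%) and 411 negative (6.97%), a negative difference meaning a lower change from 0.1 to 10 µM. With scaling to total reads, which moved the median difference of all genes from 0.05 to 0.19, 52.2% of these calls were positive, against 31.6% here. The count was 373, 355, 400 and 368 without 0.01 µM A, 0.01 µM B, 10 µM A and 10 µM C. Of the 26 genes that rose from 0.1 to 10 µM, 5 also rose from 0.01 to 1.0 µM, 4 fell and 17 were not called. Of the 107 that fell, 32 rose, 40 fell and 35 were not called.

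Gzma fell in this step and rose in the other, where it was 8.16 at 0.01 µM and 91.5 at 1.0 µM, with a log2 change of 3.30 ± 0.22 (adjusted p = 2.09e-08), and the difference was -7.37 ± 0.31 (adjusted p = 2.26e-11). Slc2a3 stood at 15.1 at 0.01 µM and 109 at 1.0 µM in the other step, with a difference of -4.04 ± 0.34 (adjusted p = 8.96e-07). For glycolysis as a list, 2 of 23 genes fell here, while in the other step 19 of 23 rose and the median was 1.42, and the difference was negative and called for 20 of the 23. Among cytosolic ribosomal proteins 0 of 65 were called here and 31 rose there, with 22 negative differences. The interferon genes Igtp and Gbp2 stood at 12.9 at 0.01 µM and 13.5 at 1.0 µM, and at 6.699 at 0.01 µM and 5.55 at 1.0 µM. Their differences were 2.02 ± 0.36 (adjusted p = 0.001495) and 2.33 ± 0.41 (adjusted p = 0.00136). Tbx21 rose in both steps, by 1.09 ± 0.26 (adjusted p = 0.03204) here and by 2.38 ± 0.26 (adjusted p = 7.45e-06) there, with a difference of -1.28 ± 0.37 (adjusted p = 0.0333). Gata3 changed by -0.42 ± 0.17 (adjusted p = 0.0846) there, and the difference of -0.53 ± 0.24 (adjusted p = 0.159) was not called. Maf stood at 18.9 at 0.01 µM and 19.3 at 1.0 µM, with a difference of -2.06 ± 0.35 (adjusted p = 0.00108), and Cxcr6 at 10.4 at 0.01 µM and 16.2 at 1.0 µM, with -2.96 ± 0.39 (adjusted p = 9.73e-05). The P13.9 share by the fibroblast list was 35.7 ± 9.84% at 0.01 µM and 6.25 ± 2.10% at 1.0 µM (SD, n = 3), so that it moved further in the other step than in this one.

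**Figure D5:**
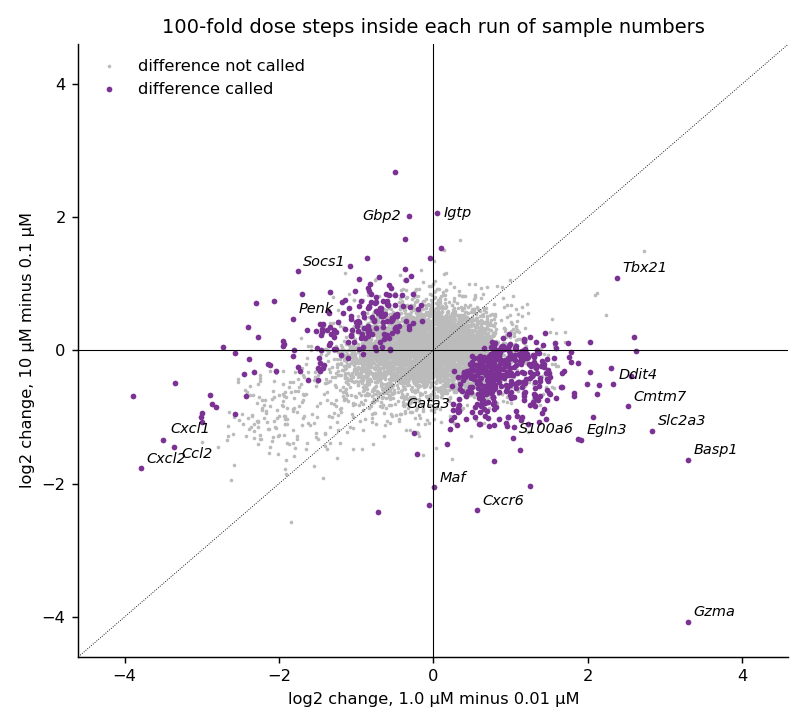
Log2 change from 0.1 to 10 µM (vertical axis) against log2 change from 0.01 to 1.0 µM (horizontal axis) for the 5897 genes tested. Purple points are the 601 genes whose 2 changes differ by the test of the difference, and the dotted line marks equal change. Gzma lies at the lower right, with a rise of 3.30 in one step and a change of -4.07 in the other, and Igtp and Gbp2 lie high near 0 on the horizontal axis.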

How the data were processed

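RNA was extracted with TRIzol, and libraries were made with the Lexogen QuantSeq 3′ kit, which reads the ends of transcripts, and sequenced on a NextSeq 500, per the labels' protocols. Per the submitters' processing notes, the build was mm10 and the tools were STAR 2.6.1d, HTSeq 0.9.1, DESeq2 and FastQC 0.11.8. Settings such as strand are not given in the sources read here. The deposited values are a signal: read counts that the authors divided by 1 size factor per library. Dividing by the smallest step gave whole reads for 284543 of 284544 values (tolerance 1e-05).

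log2(value + 1) was fitted with limma 3.58.1 (R 4.3.3, trended eBayes) over the 12 activated libraries, with 1 coefficient per dose, for the 5897 genes that reached a value of 5 in 3 or more libraries. Adjustment was by Benjamini-Hochberg across them. edgeR 4.0.16 and DESeq2 1.42.0 were run on the recovered reads as alternatives. The scripts were tested on simulated data. The 110 features without a name were left out. Symbols and positions come from RefSeq (GRCm38.p6), where 13863 names matched by symbol and 30 by synonym.

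The doses compared and the gene lists were chosen with earlier results of these data known. Named genes are a panel of T cell genes, the 12 largest rises and falls without overlap whose mean reached 20, up to 6 called members of each list or the 3 of smallest p, and the 6 largest differences of the steps in each direction. Uncalled list members beyond these (Psmb8 or Ldha, for example) were named for their role after their values were seen. Some panel and list members are not reported here and stay in the counts.

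Same-letter libraries of the different doses were compared before any blocked fit. The correlations of their deviations from the dose means were -0.0007, 0.154 and 0.0906. Those between different letters ran from -0.194 to 0.164. The letters were therefore not taken to pair the libraries, though these values do not settle whether they do.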

Additional observations from a re-analysis of the deposited data

Results flagged for a closer look

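The change from 0.1 to 10 µM and the change from 0.01 to 1.0 µM differed by a test of the difference (limma, adjusted over 5897 genes) for the 12 genes below, the largest in each direction with a mean of at least 20 over the 12 activated libraries. Negative differences, meaning a lower change from 0.1 to 10 µM, were -7.37 ± 0.31 (adjusted p = 2.26e-11) for Gzma, -4.94 ± 0.44 (adjusted p = 1.27e-06) for Basp1 and -4.04 ± 0.34 (adjusted p = 8.96e-07) for Slc2a3. They were -3.36 ± 0.30 (adjusted p = 1.27e-06) for Cmtm7, a membrane protein, -3.26 ± 0.32 (adjusted p = 3.46e-06) for Egln3 and -2.83 ± 0.23 (adjusted p = 4.43e-07) for Ddit4, a stress-induced inhibitor of mTORC1. Cmtm7 fell from 0.1 to 10 µM (-0.84 ± 0.21, adjusted p = 0.04703), from 87.2, 100.2 and 67.5 at 0.1 µM to 59.9, 57.2 and 29.3 at 10 µM. That fall was not called without any 1 library (adjusted p 0.0507 to 0.210) or after either subtraction of P13.9 transcripts (0.159 and 0.137). Ddit4 was not called between 0.1 and 10 µM, where it stood at 209, 139.5 and 150.3 at 0.1 µM and 98.6, 128 and 119.9 at 10 µM (-0.51 ± 0.16, adjusted p = 0.113), and in the other step it stood at 39.5 at 0.01 µM and 203 at 1.0 µM.

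Positive differences were 2.29 ± 0.22 (adjusted p = 3.31e-06) for Penk, the precursor of enkephalin peptides, 2.15 ± 0.24 (adjusted p = 1.67e-05) for Cxcl1, 2.02 ± 0.35 (adjusted p = 0.00122) for Cxcl2 and 2.02 ± 0.36 (adjusted p = 0.001495) for Igtp. They were 1.92 ± 0.40 (adjusted p = 0.00504) for Ccnd1, the cyclin of the G1 phase, and 1.91 ± 0.47 (adjusted p = 0.01399) for Ccl2. After subtraction of P13.9 transcripts by the fibroblast list and by the genes without naive reads, the difference was 5.33 and 4.69 for Ccnd1, which is itself 1 of the 8 genes that set the share, and 2.99 and 2.71 for Ccl2. That of Ccl2 was not called by DESeq2. Penk stood at 75.5 at 0.01 µM and 20.8 at 1.0 µM and at 25.3, 24.4 and 26.5 at 0.1 µM and 35.02, 34.9 and 36.97 at 10 µM. Ccnd1 stood at 64.7 at 0.01 µM and 7.597 at 1.0 µM and at 10.2 at 0.1 µM and 4.03 at 10 µM, with a P13.9 mean of 107. For Cxcl1, Cxcl2 and Ccl2 the level fell in both steps and fell further from 0.01 to 1.0 µM. After the same 2 subtractions the difference was 2.93 and 2.72 for Cxcl1 and 2.69 and 2.51 for Cxcl2. Chemokines of stromal cells summed to 648 to 859 at 0.01 µM, against 290 to 334 in P13.9 cells alone. The cause was not tested.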

How the results depend on the processing

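Genes called between 10 and 0.1 µM numbered 133. The count was 62 with a mean of at least 20, 293 with array weights, 8 with the naive libraries in the fit, 29 and 45 after subtraction of the P13.9 share by the fibroblast list and by the genes without naive reads, 282 in the 6 libraries with the replicate block and 279 by edgeR on the 6 libraries, which was chosen after seeing the data. Leaving out 1 library gave 41 to 108. For the difference of the steps (601) it was 367 with a mean of at least 20, 1019 with array weights, 69 with the naive libraries, and 355 to 896 without 1 library. The cause was not tested. Other settings stayed within 1.5 times of 133: 118 by edgeR, 108 by DESeq2, 91 without a filter or by quantile normalization, 123 by total reads and 193 in the 6 libraries alone. With a pseudocount of 5, 43.4% of the calls of the difference were positive.

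The replicate block over the 12 libraries gave 98 calls (495 for the difference). Since the letters were not taken to pair the libraries, it is not read as a paired result. Among the genes chosen by the naming rule, signs turned after subtraction by the fibroblast list for Gpnmb (0.0324), Gm11942 (1.25), Sparc (0.0554), Cst3 (0.0391), H2-Eb1 (0.0355) and Cd80 (0.61, and 0.33 by the genes without naive reads). Without 1 library, Il12rb2 ran from -0.20 to 0.59, Ctss from -0.40 to 0.11 and Trdc from -0.28 to 0.0042. The P13.9 share difference of -7.08 percentage points was -5.90 by the genes without naive reads, -4.65 by the ratio of sums and -9.01 to -5.29 without 1 library. Depth limits low genes most at 0.1 µM B.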

Other observations

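Features without a gene name held 3.94% to 5.36% of reads at 0.1 µM and 2.71% to 3.07% at 10 µM, so the doses did not overlap.

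Of 21 genes of endoplasmic reticulum folding, Dnajb9, a co-chaperone of the unfolded protein response, was the one called, with 5.18, 7.84 and 5.798 at 0.1 µM and 3.67, 0.685 and 1.53 at 10 µM and a log2 change of -1.41 ± 0.33 (adjusted p = 0.03204). The call held in 7 of 21 alternatives. It was lost by edgeR, by DESeq2, after both subtractions of P13.9 transcripts (adjusted p = 0.268 and 0.153) and without any 1 library other than 10 µM A (0.0501 to 0.159). The median of that list was -0.0087.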
